A study of Mus musculus with 30 samples.

Results

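The 10 genes described here encode cofactors and adaptors of the RNA exosome, taken from a fixed list of names and followed through the single-embryo count files by genotype and stage. *Rbm7* and *Zcchc8* belong to the nuclear exosome targeting (NEXT) complex, *Zfc3h1* and *Pabpn1* to the poly(A) tail exosome targeting (PAXT) connection, and *Zcchc7* to the TRAMP complex. *C1d* and *Mphosph6* encode small nuclear proteins that bind the exosome, and *Skiv2l*, *Ttc37* and *Wdr61* encode the cytoplasmic SKI complex. All 10 were found among the 55487 genes of the count files, and all 10 passed the filter on low counts that left 13415 genes for testing with the stages combined. The study asked what the loss of *Dis3*, which encodes a catalytic ribonuclease of the exosome, does to the mouse embryo before implantation, and these 10 genes were measured in the same libraries.

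The exosome is a ring of noncatalytic subunits that works with ribonucleases to trim or destroy RNA from the 3′ end. It finds its substrates through adaptors: NEXT hands over short nonpolyadenylated nuclear transcripts such as promoter upstream transcripts, PAXT hands over polyadenylated nuclear transcripts, and TRAMP marks nuclear RNA with a short tail. These nuclear adaptors work with the helicase MTR4, encoded by *Mtrex*, whereas in the cytoplasm the SKI helicase complex threads RNA into the exosome. In the cleavage stage embryo, maternal transcripts are cleared while the embryo's own genome is transcribed.

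Single mouse embryos were obtained from matings of *Dis3* het mice at 2 stages, embryonic day 2.5 (E2.5) and embryonic day 2.75 (E2.75), and cultured in KSOM medium. At E2.5 there were 6 wild-type embryos, 2 het embryos with 1 null allele and 4 embryos homozygous null for *Dis3*. The E2.75 collection comprised 3 wild-type embryos, 5 het embryos and 3 null embryos. The null allele was made with Cas9 and lacks an internal block of exons, so reads from the rest of the gene can still be counted. Every embryo, whatever its genotype, developed from the egg of a het mother. Litters are not named in the labels, and each library is 1 whole embryo, so a lower level cannot be told apart between fewer cells with a transcript and less transcript per cell. A second experiment in the series used mouse embryonic stem cells derived from *Dis3* flox/flox blastocysts and transfected with *Pou6f1-mCherry*, a tagged POU domain transcription factor, with 2 replicates of the anti-mCherry chromatin precipitation.

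Libraries held between 1690192 and 14015980 counts on genes, and 2 of the 3 null libraries of E2.75 were the shallowest (1914128 and 1690192). All 10 markers fixed for the morula were detected in every group, whereas markers of the cumulus cells that surround the egg summed to between 0 and 18.9 CPM, which are counts scaled to a common library total after TMM normalization. Markers fixed for the 2-cell stage summed to between 3.19 and 757 CPM, with a median of 14.6 CPM, in het embryos of E2.75. In every other group they summed to at most 48.6 CPM. Of the reads in null libraries, 41.1% to 43.9% at E2.75 and 32.3% to 39.5% at E2.5 fell outside annotated exons, against 21% to 33.4% in the other libraries. *Dis3*, which checks the genotypes, was between 0 and 21.5 CPM in the 7 null embryos, between 30.4 and 59.2 CPM in the 7 het embryos and between 18.0 and 147 CPM in the 9 wild-type embryos. The 18.0 CPM came from the library labelled wild-type replicate 6 of E2.5, within the range of the null embryos. It was kept as labelled. For *Zfc3h1*, *Ttc37* and *Dis3l* values without it are also given, and most other results include it. Adjusted p values were computed with the quasi-likelihood test of edgeR and corrected by Benjamini-Hochberg over every gene tested. Called genes had an adjusted p under 0.1 together with a log2 fold change above 1 or below -1.

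The promoters of 3 members are shown because POU6F1 peaks of both chromatin replicates had their summits inside them and because these genes differ in their results. *Zfc3h1* was the only member called between genotypes, with calls near the threshold, *Mphosph6* had the largest fall between the stages, and *Ttc37* was called in neither comparison. Each sequence is the reference of GRCm38.p6 as given by RefSeq, read 5′ to 3′ on the strand of the gene from 250 bases before its start to 50 bases after it. The windows are chr10:115384709-115385008 on the plus strand for *Zfc3h1*, chr8:117801925-117802224 on the minus strand for *Mphosph6* and chr13:76098484-76098783 on the plus strand for *Ttc37*. Capitals mark the motifs found among those searched.
Zfc3h1: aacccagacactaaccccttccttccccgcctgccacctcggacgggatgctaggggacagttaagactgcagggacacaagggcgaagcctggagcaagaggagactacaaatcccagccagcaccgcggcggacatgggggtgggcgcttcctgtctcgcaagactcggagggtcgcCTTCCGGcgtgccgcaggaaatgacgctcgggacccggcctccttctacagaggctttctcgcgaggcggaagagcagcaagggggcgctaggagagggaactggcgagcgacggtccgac
Mphosph6: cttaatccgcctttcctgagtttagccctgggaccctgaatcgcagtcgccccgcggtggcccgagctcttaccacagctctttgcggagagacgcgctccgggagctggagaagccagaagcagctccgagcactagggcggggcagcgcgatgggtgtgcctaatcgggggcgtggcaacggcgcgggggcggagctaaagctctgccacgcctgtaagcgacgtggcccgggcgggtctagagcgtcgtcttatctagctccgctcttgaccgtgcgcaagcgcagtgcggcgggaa
Ttc37: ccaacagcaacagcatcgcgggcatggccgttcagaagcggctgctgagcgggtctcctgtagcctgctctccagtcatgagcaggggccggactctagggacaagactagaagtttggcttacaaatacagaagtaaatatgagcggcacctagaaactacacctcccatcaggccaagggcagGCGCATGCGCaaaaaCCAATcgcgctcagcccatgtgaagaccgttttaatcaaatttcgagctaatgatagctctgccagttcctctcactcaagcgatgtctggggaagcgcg
The capitals in the *Zfc3h1* window, at positions 180 to 186, are the reverse complement of CCGGAAG, a core recognised by ETS factors. In the *Ttc37* window the capitals are the core GCATGCGC, recognised by NRF1, which matches on both strands with the hits overlapping, at positions 186 to 195, and the CCAAT box, recognised by NF-Y, at positions 201 to 205. No searched motif is in the *Mphosph6* window, which has the highest GC content of the 8 member promoters that were matched by symbol (66.0%).

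These motifs, the POU octamer ATGCAAAT and the TATA box TATAAA were searched on both strands, and hits of different motifs did not overlap in the member windows. The ETS core was found in 2 of 8 member promoters (*Zcchc7* and *Zfc3h1*), against 8.86% of the 32841 mouse promoters in the table. CCAAT was found in 2 of 8 (*Pabpn1* and *Ttc37*) against 37.4%, and TATAAA in 1 of 8 (*Zcchc7*) against 13.6%. The NRF1 core was found in 2 of 8 (*Ttc37* and *Zcchc7*) against 2.71%, and the octamer in 0 of 8 against 1.74%. The 8 member promoters held between 14 and 37 CG pairs in 300 bases, where the median of all promoters was 7. Their GC content ranged from 46.0% to 66.0% around the median of 52.7% for all promoters.

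In wild-type embryos the transcripts of the exosome-bound proteins and of the WD40 subunit of SKI were the most abundant of the members. That of the SKI helicase had the lowest mean over the 9 embryos, through its low level at E2.5. Levels were compared between genes as CPM per kilobase of merged exons, as mean ± SD over the 9 wild-type embryos. *C1d*, whose product binds the nuclear exosome and the ribonuclease EXOSC10, had 91.9 ± 48.2 (SD, n = 9). *Wdr61*, which encodes a WD40 repeat subunit that SKI shares with the PAF1 transcription elongation complex, had 85.7 ± 32.9 (SD, n = 9). These 2 genes were not separated, since *C1d* was above *Wdr61* in 5 of 9 embryos.

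*Mphosph6*, which encodes an M phase phosphoprotein that binds MTR4 on the exosome, followed with 47.7 ± 26.2 (SD, n = 9) and was below *Wdr61* in 9 of 9 embryos. *Pabpn1*, which encodes the nuclear poly(A) binding protein, had 16.5 ± 5.83 and *Rbm7*, the RNA binding subunit of NEXT, 11.2 ± 3.16 CPM per kilobase (SD, n = 9). *Zfc3h1*, which encodes the zinc finger scaffold of PAXT, had 8.26 ± 4.17 and *Zcchc8*, the scaffold of NEXT, 4.69 ± 2.14 (SD, n = 9). Each of these genes was above the next in 6 to 8 of 9 embryos, so the order is one of means with overlapping ranges.

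At the lower end were *Zcchc7*, the zinc knuckle subunit of TRAMP, with 2.55 ± 1.24, *Ttc37*, the tetratricopeptide scaffold of SKI, with 2.05 ± 1.23, and *Skiv2l*, the SKI helicase, with 1.82 ± 2.07 CPM per kilobase (SD, n = 9). *Zcchc7* was above *Ttc37* in 5 of 9 embryos and *Ttc37* above *Skiv2l* in 6 of 9, so these 3 genes were not separated. The SD of *Skiv2l* exceeded its mean because its mean was 0.496 at E2.5 and 4.45 at E2.75. At E2.75 it was therefore above the means of *Zcchc7* (2.47) and *Ttc37* (2.42) by merged exons. Scaled by the longest transcript, *Skiv2l* was at 4.91 at E2.75, below *Zcchc7* (5.05) and above *Ttc37* (4.09). With that length *Zcchc8* was above *Zcchc7* in 3 of 9 wild-type embryos, and *Ttc37* above *Skiv2l* in 8 of 9. The subunits of SKI lay near both ends of the range of the means over 9 embryos. *Wdr61* shares 33.9% of its exon bases with *Dnaja4* on the opposite strand and *Pabpn1* shares 21.4% with *Gm20521*, and the counting ignored strand. When only the exon bases of no other gene were used, *Wdr61* was at 130 CPM per kilobase, above *C1d* in 8 of 9 embryos. The overlapping genes held 169 and 98 counts over all 23 embryos, against 66438 for *Wdr61* and 8747 for *Pabpn1*, and near-identical copies elsewhere held at most 1.5% of a member's counts.

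**Figure D1:**
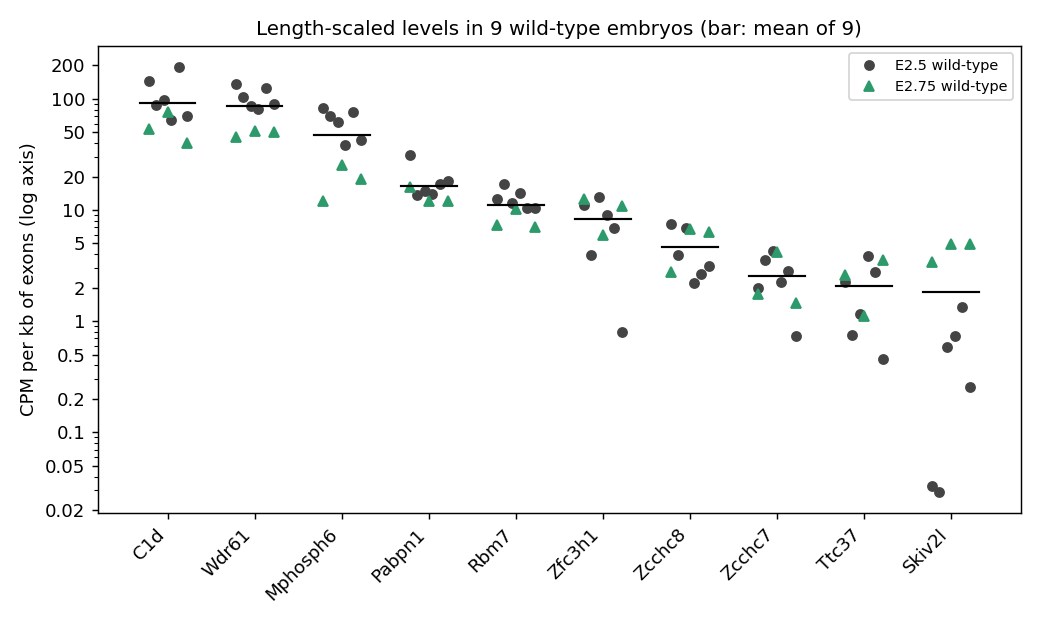
Level of each member in the 9 wild-type embryos as CPM per kilobase of merged exons on a log scale, with 1 point per embryo, marked by stage, and the mean. Members run from *C1d* (mean 91.9) to *Skiv2l* (mean 1.82), and the points of neighbouring genes overlap, although *Wdr61* was above *Mphosph6* within each of 9 embryos.

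Between the genotypes, edgeR called *Zfc3h1* and none of the other 9 members. With the stages combined, null against wild-type called 1 of 10 members, *Zfc3h1*, higher, where 5.25% of all 13415 genes were called and 3.66% were called higher. Null against het called 0 of 10, where 5.73% of all genes were called, with 1 member at an unadjusted p under 0.05 (*Zfc3h1*). DESeq2 called 0 of 10 there, where it called 1240 genes higher and 544 lower among 18422 with an adjusted p. Het against wild-type called 0 of 10, with 0 at an unadjusted p under 0.05 and 0 by DESeq2, where edgeR called 0% of all genes (934 at an unadjusted p under 0.05) and DESeq2 37 higher and 28 lower. The median log2 fold change of the members was 0.07 in null against het, -0.10 in null against wild-type and 0.08 in het against wild-type, beside 0.02, -0.02 and -0.03 for all genes. These comparisons share embryos and are given side by side.

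**Figure D2:**
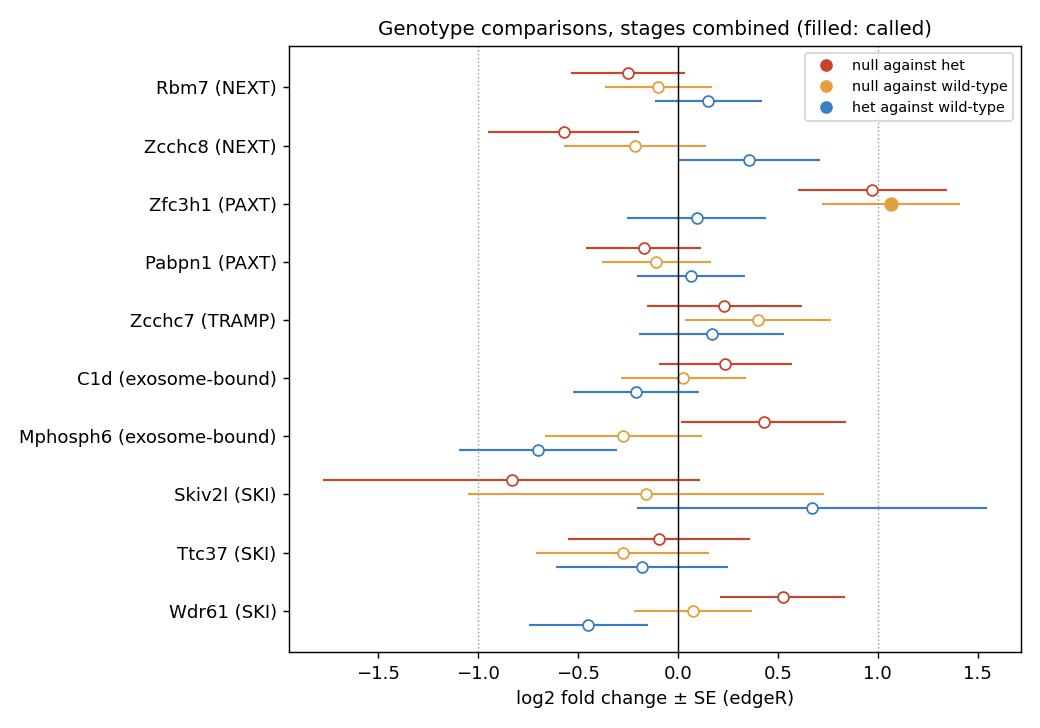
Log2 fold change of each member with its standard error for null against het, null against wild-type and het against wild-type, stages combined (filled points are called). *Zfc3h1* lies at 0.97 and 1.07 in the comparisons with null embryos and at 0.09 in het against wild-type. The other 9 members lie between -0.83 and 0.67, each without a call.

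*Zfc3h1* (ENSMUSG00000034163, chr10:115384959-115432772, plus strand, GRCm38) had its highest group mean in null embryos at both stages, although the groups overlapped at E2.5. At E2.75 it had 137, 193 and 132 CPM in the null embryos, 67.9, 87.1, 32.9, 70.6 and 62.0 CPM in the het embryos and 98.5, 46.8 and 85.0 CPM in the wild-type embryos. Every null embryo of E2.75 thus stood above all 8 others, which was the case for 5.57% of the genes tested at that stage (7.7% against het alone, 12.5% against wild-type alone).

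At E2.5 the null embryos had 102, 184, 88.5 and 115 CPM, and the het embryos 90.9 and 72.9 CPM. The wild-type embryos ranged from 6.31 to 103 CPM with a median of 62.8 CPM. At this stage the groups overlapped, and the lowest value, 6.31 CPM, belonged to the library labelled wild-type replicate 6.

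The mean was 122 ± 42.2 CPM in null (SD, n = 4) and 58.9 ± 36.0 CPM in wild-type embryos (SD, n = 6) at E2.5. At E2.75 it was 154 ± 33.9 CPM in null (SD, n = 3), 64.1 ± 19.8 in het (SD, n = 5) and 76.8 ± 26.8 in wild-type embryos (SD, n = 3). With the stages combined, null against wild-type was 1.07 on the log2 scale (SE 0.35, edgeR adjusted p = 0.0864) and null against het 0.97 (SE 0.37, edgeR adjusted p = 0.153). At E2.75 alone, null against het was called at 1.23 (SE 0.32, edgeR adjusted p = 0.0587), where 4.82% of all genes were called, and null against wild-type was 0.96 (SE 0.37, edgeR adjusted p = 0.186; 4.54% called). At E2.5 alone, null against wild-type was 1.03 (SE 0.51, edgeR adjusted p = 0.370; 1.82% called) and null against het 0.51 (SE 0.71, edgeR adjusted p = 0.887; 0.0126% called). The E2.5 value of null against wild-type lay between 0.78 and 1.26 when single embryos, wild-type replicate 6 among them, were left out. The difference between the stages in null against het was 0.68 (edgeR, unadjusted p = 0.383, adjusted p = 0.959), and 0 members were called for it by edgeR or DESeq2, with 0 at an unadjusted p under 0.05 (0% of all genes called by edgeR, 1234 at an unadjusted p under 0.05, and 23 higher and 58 lower by DESeq2). No other member was called at either stage alone. DESeq2 called *Zfc3h1* in null against wild-type at E2.75 as well (1.02, DESeq2 adjusted p = 0.0940), where it called 1160 genes higher and 834 lower.

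The calls on *Zfc3h1* lay near the threshold. Without the library labelled wild-type replicate 6 of E2.5, null against wild-type was 0.91 (edgeR adjusted p = 0.0563), under the fold threshold, and leaving out single embryos ended that call in 10 of 16 cases and the E2.75 call in 6 of 8. With library sizes set by the ERCC spike-ins the median of all genes moved to -1.08 in null against het and to -0.37 in null against wild-type. On that scale *Zfc3h1* was at -0.05 and 0.72, that is 1.03 and 1.09 above the median gene, and neither was called. *Rbm7*, *Zcchc8*, *Pabpn1* and *Zcchc7* were called lower in null against het on that scale (-1.39, -1.78, -1.42 and -1.05), as were 4487 of 13415 genes. The higher share of reads outside exons in null libraries moved with this result, as did the lower depth at E2.75, and their part in it was not tested. An unspliced transcript model, *A130012E19Rik*, lies inside the locus on the same strand and shares no exon base with *Zfc3h1*.

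*Pabpn1* (ENSMUSG00000022194, chr14:54892500-54898169, plus strand), the other PAXT member, was not called between genotypes. At E2.75 it had 52.7, 25.6 and 49.3 CPM in null, 48.2, 69.9, 57.0, 61.9 and 66.5 CPM in het and 49.0, 36.5 and 36.3 CPM in wild-type embryos, with overlapping ranges. At E2.5 it had 32.7, 31.3, 63.5 and 70.8 CPM in null, 32.3 and 31.9 CPM in het and 41.1 to 94.2 CPM in wild-type embryos. Null against wild-type was -0.11 on the log2 scale (SE 0.27) and null against het -0.17 (SE 0.29). The difference between the stages in null against het was -1.12 (SE 0.58, edgeR, unadjusted p = 0.0637, adjusted p = 0.763).

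**Figure D3:**
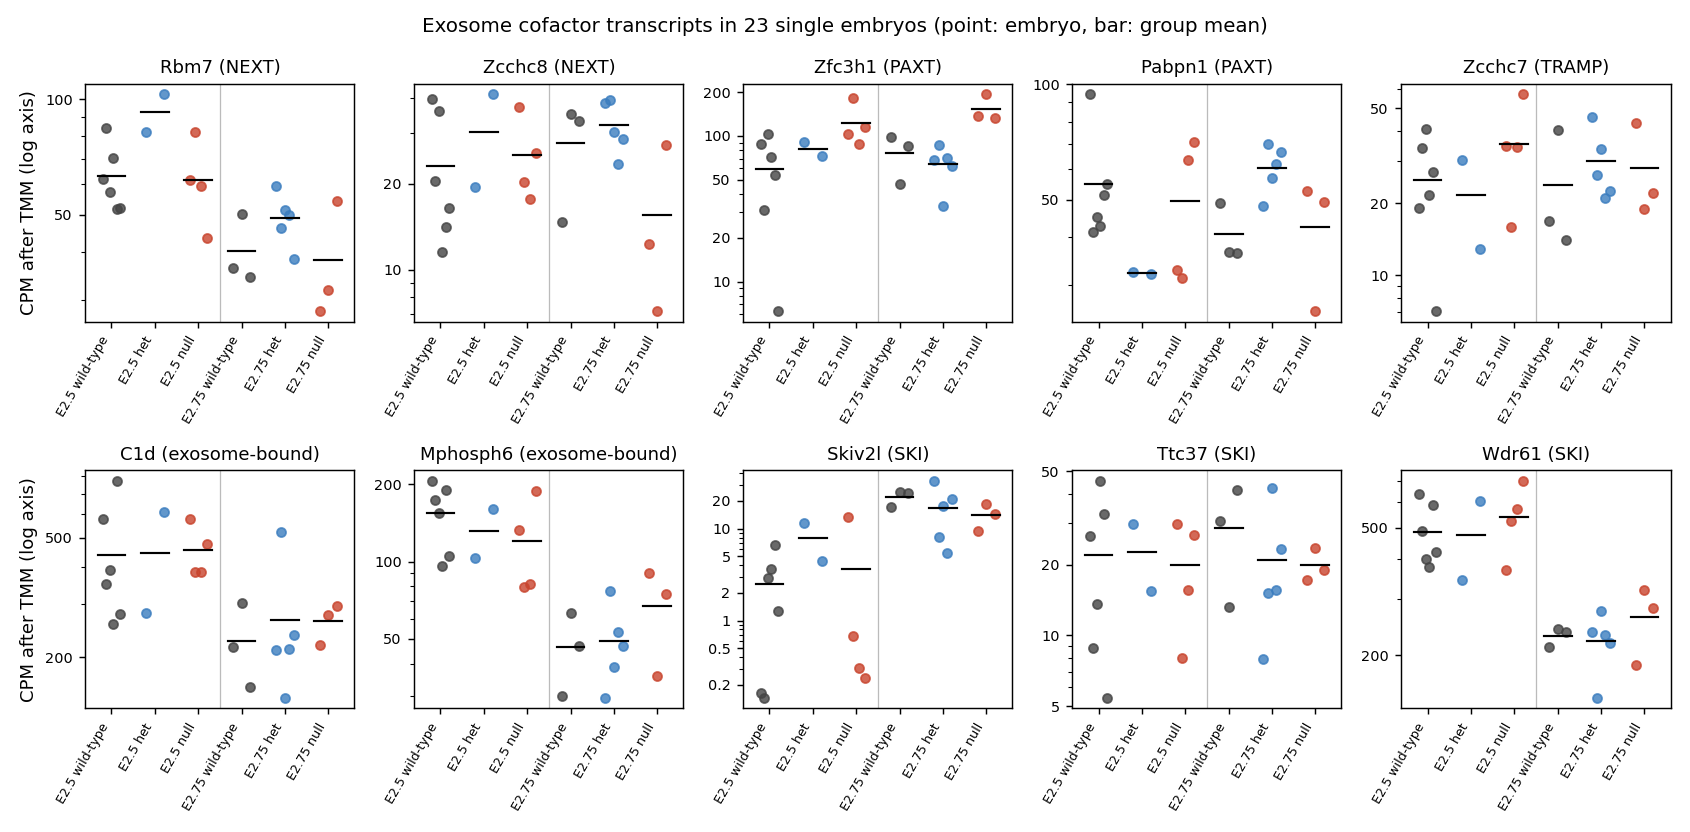
CPM of each member in every embryo on a log scale, by stage and genotype, with 1 point per embryo, a bar at the group mean and an axis range of its own for each gene. At E2.75 the 3 null embryos sit above all other embryos for *Zfc3h1* (132 to 193 CPM), while for the other members the null points of E2.75 overlap those of the het and of the wild-type embryos.

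The NEXT members did not pass the test in any genotype comparison. *Zcchc8* (ENSMUSG00000029427, chr5:123698294-123721100, minus strand) had 12.3, 7.18 and 27.3 CPM in the null embryos of E2.75, against 38.4, 39.2, 30.4, 23.4 and 28.7 CPM in het and 14.6, 35.2 and 33.2 CPM in wild-type embryos. The lowest values were those of null replicates 1 and 2, the shallowest libraries of the series, and the groups overlapped. Null against het at E2.75 was -1.05 on the log2 scale (SE 0.49, edgeR, unadjusted p = 0.049, adjusted p = 0.292). At E2.5 the null embryos had 37.1, 20.2, 17.7 and 25.6 CPM, the het embryos 19.5 and 41.1 CPM and the wild-type embryos 11.6 to 39.7 CPM.

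*Rbm7* (ENSMUSG00000042396, chr9:48488701-48495299, minus strand) had 61.5, 81.9, 59.5 and 43.5 CPM in the null embryos of E2.5, each below both het embryos (82.3 and 103 CPM), as for 9.59% of the genes tested there. The wild-type embryos, at 51.8 to 84.1 CPM, overlapped the null embryos. At E2.75 the values were 28.1, 31.8 and 54.4 CPM in null, 38.4 to 59.2 CPM in het and 34.5 to 50.1 CPM in wild-type embryos. Null against het was -0.25 on the log2 scale (SE 0.28, edgeR adjusted p = 0.712).

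*Zcchc7* (ENSMUSG00000035649, chr4:44755877-44932215, plus strand), the TRAMP member, was spread widely within every genotype. Its wild-type embryos ranged from 7.08 to 40.9 CPM at E2.5, its null embryos had 34.6, 16, 34.5 and 57.1 CPM and its het embryos 30.3 and 12.9 CPM. The 7.08 CPM came from the library labelled wild-type replicate 6, so the lower end of the wild-type range at E2.5 rests on it. Null against wild-type was 0.40 and null against het 0.23 on the log2 scale, and neither passed the test.

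*C1d* (ENSMUSG00000000581, chr11:17257579-17269176, plus strand) lay between 259 and 770 CPM in wild-type embryos of E2.5, at 578, 386, 383 and 475 CPM in null embryos and at 281 and 607 CPM in het embryos. Null against wild-type was 0.03 on the log2 scale (SE 0.31, edgeR adjusted p = 0.989). *Mphosph6* (ENSMUSG00000031843, chr8:117791645-117801943, minus strand) was at 132, 79.9, 82.1 and 189 CPM in null embryos of E2.5, against 103 and 160 CPM in het embryos. Null against het was 0.43 (SE 0.41), null against wild-type -0.27 (SE 0.39) and het against wild-type -0.70 (SE 0.40, edgeR, unadjusted p = 0.0872, adjusted p = 0.720). For both genes the genotypes overlapped at each stage.

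Of the SKI members, *Skiv2l* (ENSMUSG00000040356, chr17:34839228-34850210, minus strand) gave the least precise comparison. Null against het was -0.83 with a standard error of 0.95, and null against wild-type -0.16 with one of 0.89. *Ttc37* (ENSMUSG00000033991, chr13:76098734-76190316, plus strand) had 17.3, 23.6 and 19 CPM in the null embryos of E2.75 and 29.6, 7.99, 15.6 and 26.8 CPM in those of E2.5, inside the range of wild-type embryos at each stage. For the 7.99 CPM this rests on wild-type replicate 6 (5.43 CPM), since the next wild-type embryo of E2.5 was at 8.86 CPM. *Wdr61* (ENSMUSG00000061559, chr9:54714735-54734519, minus strand) was at 0.52 in null against het (SE 0.31, edgeR adjusted p = 0.412) and at 0.07 in null against wild-type (SE 0.30, edgeR adjusted p = 0.959). None of the 3 SKI genes passed the test between genotypes.

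After TMM normalization, more members were called between E2.5 and E2.75 than between genotypes, which did not hold with ERCC scaling. In wild-type embryos *Mphosph6* and *Wdr61* fell and *Skiv2l* rose, so that 3 of 10 members were called where 7.38% of all 18677 genes tested were called. The groups did not overlap for these 3 genes and for *Rbm7*. *Mphosph6*, *Wdr61* and *Rbm7* were lower in every wild-type embryo of E2.75 than in every one of E2.5, as were 6.38% of all genes, and *Skiv2l* was higher, as were 5.03%. The median log2 fold change of the members was -0.25, beside 0.00 for all genes.

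*Mphosph6* ranged from 95.7 to 205 CPM in the 6 wild-type embryos of E2.5, with a median of 164 CPM, and was at 30.1, 62.9 and 46.9 CPM in the 3 of E2.75. The mean fell from 154 ± 44.9 (SD, n = 6) to 46.7 ± 16.4 CPM (SD, n = 3), a log2 fold change of -1.72 (SE 0.39, edgeR adjusted p = 0.0115). The 5 het embryos of E2.75 had 29.6, 76.9, 38.8, 53.2 and 47.0 CPM, against 103 and 160 CPM for those of E2.5, and null embryos of E2.75 had 90.2, 35.9 and 74.6 CPM. The stage change was -1.45 in het (edgeR adjusted p = 0.189) and -0.86 in null embryos (edgeR adjusted p = 0.283), where 0.278% and 3% of all genes were called. In null embryos the stages overlapped, since 2 null embryos of E2.5 were at 79.9 and 82.1 CPM.

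*Wdr61* was at 378 to 638 CPM in wild-type embryos of E2.5, with a median of 454 CPM, and those of E2.75 had 212, 241 and 237 CPM. Its mean fell from 485 ± 107 (SD, n = 6) to 230 ± 15.8 CPM (SD, n = 3), a log2 fold change of -1.08 (SE 0.27, edgeR adjusted p = 0.0179). In null embryos it fell from 368, 524, 572 and 697 CPM to 186, 321 and 280 CPM (log2 fold change -1.05, edgeR adjusted p = 0.0559). Its het embryos of E2.75 had 236, 148, 274, 231 and 218 CPM, below the 342 and 604 CPM of the het embryos of E2.5 (-1.10, edgeR adjusted p = 0.135). No embryo of E2.75 reached the lowest of E2.5 in any of the 3 genotypes. The share of all genes with such a separation was computed for wild-type embryos alone (6.38%), and the E2.5 het group holds 2 embryos. In the wild-type comparison the call on *Wdr61* was lost when E2.5 replicate 1 was left out (-0.98, edgeR adjusted p = 0.0890), because the change was then under the fold threshold.

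*Skiv2l* had few counts in most wild-type embryos of E2.5. They held 2, 1, 14, 33, 65 and 13 counts, or 0.145 to 6.68 CPM with a median of 2.08 CPM, and the 3 embryos of E2.75 held 64, 223 and 243 counts, or 17, 24.8 and 24.6 CPM. Its log2 fold change was 3.16 (SE 1.02, edgeR adjusted p = 0.0730), and the change rests on few counts in the earlier embryos. Among the null embryos of E2.5, replicate 1 had 13.4 CPM while the others had 0.680, 0.305 and 0.235 CPM, from 4, 1 and 1 counts. At E2.75 the null embryos had 9.37, 18.5 and 14.3 CPM and the het embryos 5.50 to 32.8 CPM, a range that overlaps the 11.4 and 4.45 CPM (93 and 48 counts) of the het embryos of E2.5. The stage change was 1.87 in null (edgeR adjusted p = 0.425) and 1.09 in het embryos (edgeR adjusted p = 0.828). Leaving out 1 wild-type embryo ended the call in 7 of 9 cases, with log2 fold changes between 2.91 and 3.77.

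The remaining SKI scaffold gene, *Ttc37*, was at 5.43 to 45.3 CPM in wild-type embryos of E2.5, with 30.6, 13.3 and 41.7 CPM in those of E2.75, and its change of 0.36 was not called. The subunits of this complex therefore gave a fall, a rise and no call between the same embryos. *C1d* (-0.95, SE 0.37, edgeR adjusted p = 0.144) and *Rbm7* (-0.64, SE 0.32, edgeR adjusted p = 0.261) were below 0 without a call. *Zcchc8* (0.27), *Zfc3h1* (0.38), *Pabpn1* (-0.44) and *Zcchc7* (-0.06) were not called either.

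**Figure D4:**
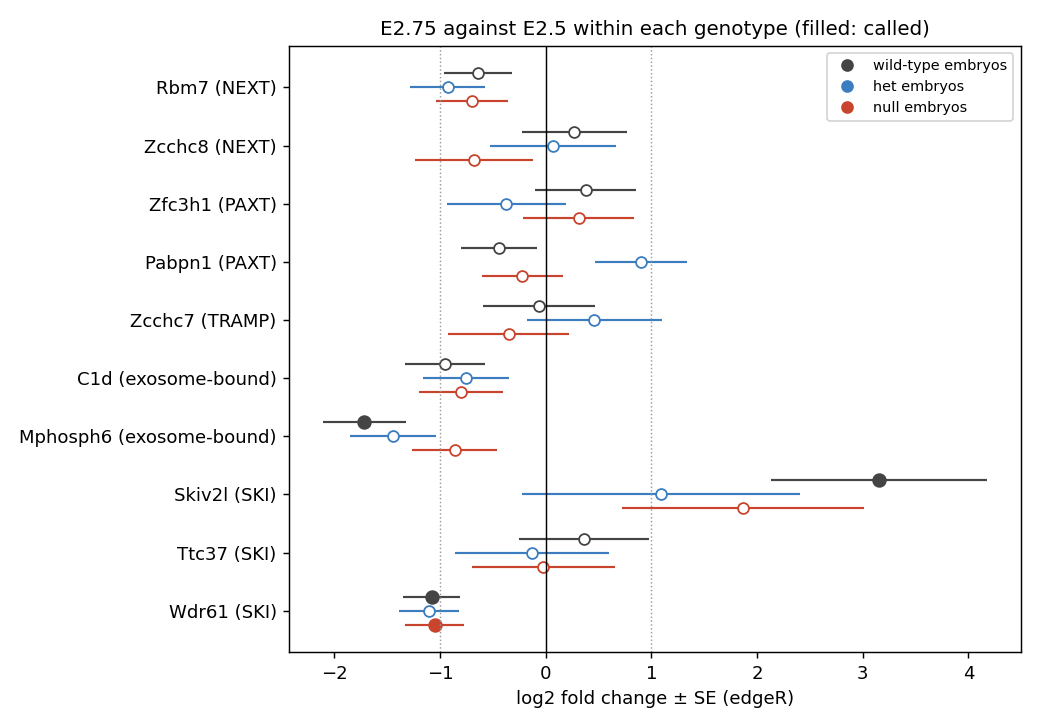
Log2 fold change of E2.75 against E2.5 with its standard error for each member in wild-type, het and null embryos (filled points are called). *Mphosph6*, *Wdr61*, *C1d* and *Rbm7* lie below 0 in all 3 genotypes and *Skiv2l* above 0 (3.16, 1.09 and 1.87), while the other 5 members change sign between genotypes.

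The stage change had the same sign in all 3 genotypes for 5 of 10 members, as for 42.1% of all genes. It was below 0 in all 3 for 4 members (20.1% of all genes) and above 0 for 1 (22%). When all 23 embryos entered 1 fit of the stage with genotype as a covariate, an alternative chosen after seeing the data, 5 of 10 members passed an adjusted p under 0.1 at any fold (18.1% of all genes). *Wdr61* was at -1.08 (edgeR adjusted p = 5.33e-05), *Mphosph6* at -1.35 (edgeR adjusted p = 0.000382), *Rbm7* at -0.74 (edgeR adjusted p = 0.00930), *C1d* at -0.85 (edgeR adjusted p = 0.0115) and *Skiv2l* at 2.15 (edgeR adjusted p = 0.0270). The changes of *Wdr61*, *Mphosph6* and *Skiv2l* were beyond the fold threshold, as for 10.9% of all genes. The het embryos of E2.75 lay, for *Pabpn1*, between 48.2 and 69.9 CPM, above the 32.3 and 31.9 CPM of E2.5 (0.90, edgeR, unadjusted p = 0.0497, adjusted p = 0.553), while its wild-type and null changes were -0.44 and -0.22. How many of all genes separate in this way in het embryos was not computed.

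Scaling by the ERCC spike-ins changed the stage results. It moved the median of all genes to 0.89 in wild-type embryos, put *Mphosph6* at -0.67 and *Wdr61* at -0.04 without a call, and kept *Skiv2l* called at 4.08. *Zcchc8* was called as well (1.35, edgeR adjusted p = 0.0807), where 3218 of 18677 genes were called higher and 59 lower. *C1d* and *Rbm7* turned to 0.08 and 0.27 on that scale. The falls of *Mphosph6* and *Wdr61* are therefore falls relative to other genes of the same libraries. Markers of the oocyte and of maternal RNA also differed between the stages, summing to 50.5 to 107 CPM in wild-type embryos of E2.5 and 9.02 to 21.8 CPM at E2.75, and their part in these changes was not tested.

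Few other genes of the pathway passed the test between genotypes. Of the 9 subunits of the exosome core, 8 were tested and 0 were called in null against het and in null against wild-type by edgeR, with 3 and 0 at an unadjusted p under 0.05, and 0 by DESeq2. Of 15 partners of the members, 14 were tested and 0 were called in either comparison by edgeR or DESeq2, with 0 at an unadjusted p under 0.05. Over all genes edgeR called 5.73% in null against het and 5.25% in null against wild-type. DESeq2 called 1240 higher and 544 lower in the first, and 1186 higher and 477 lower in the second. *Mtrex*, which encodes the helicase that NEXT, PAXT and TRAMP share, was at 0.19 in null against het and 0.13 in null against wild-type (SE 0.31 and 0.29).

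Among the 4 ribonuclease genes, *Dis3* fell in null against het (log2 fold change -2.06, edgeR adjusted p = 0.0253) and in null against wild-type (-3.01, edgeR adjusted p = 0.000943). *Dis3l*, which encodes the cytoplasmic relative of DIS3, had 55.4, 31.8, 22.9 and 15.0 CPM in the null embryos of E2.5, against 4.42 and 2.13 CPM in het embryos. With the stages combined it rose by 2.73 in null against het (SE 0.89, edgeR adjusted p = 0.0840). At E2.75 the null embryos had 3.45, 6.15 and 9.97 CPM, overlapping the 0.422 to 6.03 CPM of the het embryos, and null against het was 1.05 (edgeR adjusted p = 0.661). *Dis3l* was at 37.2 CPM in the library labelled wild-type replicate 6 of E2.5, where the other 5 wild-type embryos of E2.5 had at most 4.83 CPM. Null against wild-type was 1.80 with that library (edgeR adjusted p = 0.253) and 3.37 without it (edgeR adjusted p = 0.00374).

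Between the stages of wild-type embryos, 1 of 8 core genes and 2 of 14 partners were called, where 7.38% of all genes were called. *Exosc3*, which encodes an RNA binding cap subunit of the core, fell from between 187 and 318 CPM to 93.2, 113 and 140 CPM (log2 fold change -1.10, edgeR adjusted p = 0.0112). *Hbs1l*, which encodes a ribosome rescue factor whose short isoform bridges SKI and the exosome, rose from between 0.0817 and 7.40 CPM to 16.2, 10.1 and 16.1 CPM (2.68, edgeR adjusted p = 0.0671). *Srrt*, which encodes the cap-associated protein ARS2, rose by 1.43 (edgeR adjusted p = 0.0162). *Skiv2l* and *Hbs1l*, both linked to SKI, were thus each at most 7.40 CPM in wild-type embryos of E2.5 and at least 10.1 CPM at E2.75. A rise without overlap between these groups was seen for 5.03% of all genes. The other SKI genes went otherwise, since *Wdr61* fell (-1.08) and *Ttc37* was not called (0.36). Like *Skiv2l*, *Hbs1l* had few counts in these embryos of E2.5 (1 to 72). Its het embryos overlapped between the stages, with 6.39 and 14.7 CPM at E2.5 and 8.69 to 16.8 CPM at E2.75. *Exosc3* (-1.21, edgeR adjusted p = 0.0225) and *Hbs1l* (3.52, edgeR adjusted p = 0.0766) were also called between the stages of null embryos, where 3% of all genes were called.

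In the stem cells, POU6F1 peaks lay near the start sites of most members, as they did for most genes. The deposited peaks come in 2 lists per replicate, numbered 1 and 2, which the study assigns to different controls. List 1, the longer, was called against the IgG precipitation of the same transfected cells, and list 2, the shorter, against cells transfected with *mCherry* alone. In the longer lists both replicates had a peak within 1 kb of a start site for 8 of 10 members, where 65.3% of the 13415 genes did. In the shorter lists they did for 5 of 10 (*Zcchc7*, *Mphosph6*, *Skiv2l*, *Ttc37* and *Wdr61*), where 23.9% of genes did. The exceptions in the longer lists, *Zcchc8* and *Pabpn1*, had a peak in replicate 1 alone, with a fold enrichment of 5.21 and 9.63.

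In the longer lists *Skiv2l* had the highest peak of the members in both replicates, with a fold enrichment over the control of 34.8 in replicate 1 and 14 in replicate 2 and summits at -101 and -12 bp from a start site. *Mphosph6* followed with 31.5 and 9.55 and summits at -124 and -133 bp, at positions 158 and 149 of the printed window. *Wdr61* had 26.0 and 9.13. The median peak of the longer lists had 5.61 in replicate 1 and 4.84 in replicate 2. The highest peaks of the 3 members called between the stages stood above these medians in both replicates. So did those of *Rbm7*, *C1d*, *Zcchc7* and *Ttc37*, which were not called. In the shorter lists the order was different. *Skiv2l* had 13.1 in replicate 1, below *Mphosph6* (21.8), *Wdr61* (19.5) and *C1d* (14.7), and 2.59 in replicate 2, the lowest member peak there and under the median of 4.90. *Mphosph6* and *Wdr61* had 6.56 and 6.18 in replicate 2 of the shorter lists.

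The peaks of *Rbm7* (19.9 and 8.50), *C1d* (18.4 and 6.73), *Zcchc7* (15.5 and 7.25) and *Ttc37* (15.5 and 6.96) were lower. The *Ttc37* summits fell at positions 219 and 284 of its window, after the capitals. *Zfc3h1* had the lowest values of the 8 members with peaks in both replicates of the longer lists, with 11.8 in replicate 1 and peaks of 4.69 and 5.02 in replicate 2, around the median of 4.84. Its summits nearest the start fell at positions 213 and 180 of its window, the second (the peak of 4.69) at the first base of the ETS core. Another gene starts within 1 kb for several members, *Gm5617* 143 bp from *Rbm7*, *Thap2* 516 bp from *Zfc3h1*, *Gm10617* 119 bp from *Mphosph6*, *Nelfe* 181 bp from *Skiv2l* and *Arsk* 74 bp from *Ttc37*, and a peak there cannot be given to 1 gene. Replicate 2 had fewer peaks than replicate 1 (24524 against 82694), no read depth comes with the lists, and binding was measured in transfected stem cells, not in embryos.

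**Figure D5:**
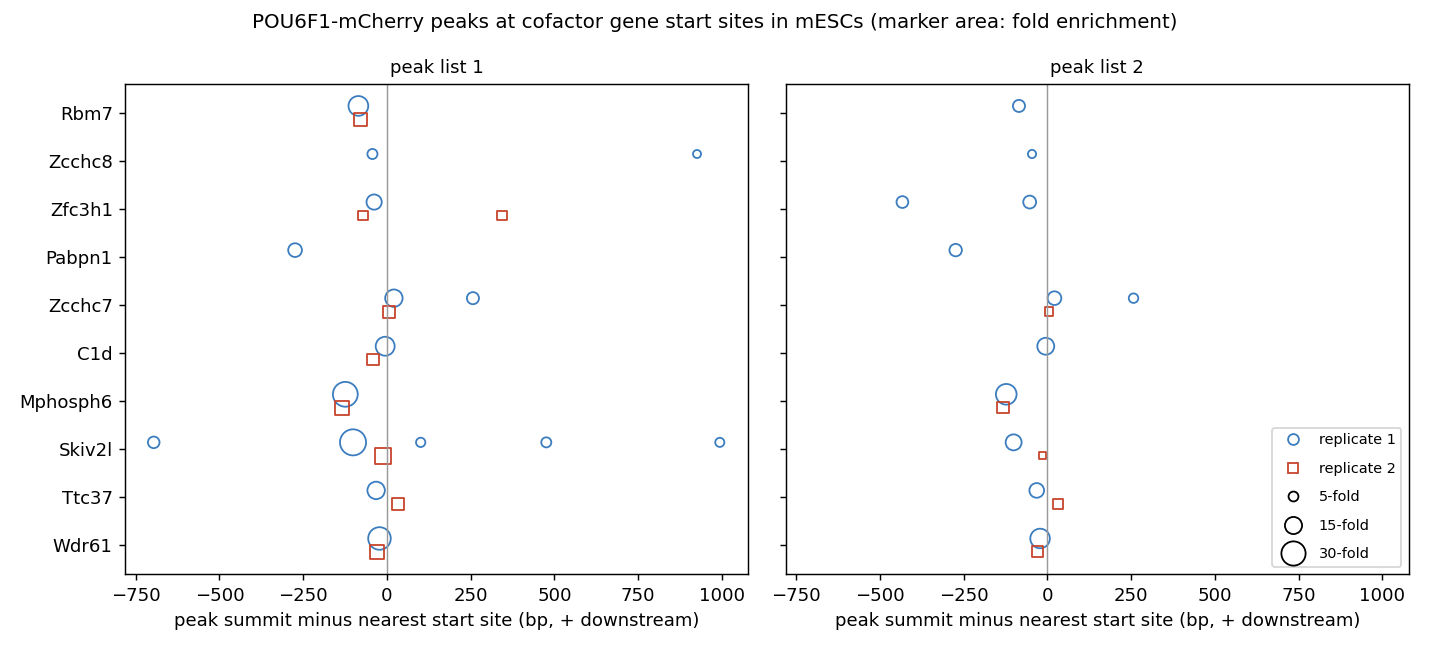
POU6F1 peaks within 1 kb of a start site of each member, in the longer lists (peak list 1) and the shorter lists (peak list 2). The horizontal axis is the distance of the peak summit from the nearest start site in bp, circles are replicate 1 and squares replicate 2, and the marker area is the fold enrichment. In list 1 *Skiv2l* has the largest markers (34.8 and 14), near the start site, and *Zcchc8* and *Pabpn1* have no square, whereas in list 2 the *Skiv2l* square is the smallest (2.59).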

How the data were processed

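Groups were taken from the labels, which name genotype, stage and replicate. The members and the gene lists were chosen with earlier results of these data known. Per the submitters' processing notes and the paper's methods, the authors used cutadapt 3.4 for trimming, STAR 2.7.8a for alignment (GRCm38) and HTSeq 0.11.4 for unstranded counting, and deposited raw counts of whole reads for each gene. Chromatin reads were aligned with Bowtie2 2.4.4, and MACS2 2.2.7.1 was run on each replicate. The authors' deposited peak lists carry a score, a ratio (the fold enrichment over a control) and −log10 p and q, of which the ratio and −log10 q were used.

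Summary lines of the counter and the 92 ERCC spike-ins stayed out of library sizes and tests. Genotypes and stages were compared with edgeR 4.0.16 under R 4.3.3 (glmQLFit and glmQLFTest, TMM, filterByExpr, Benjamini-Hochberg over all genes tested) with no covariate. The 3 genotypes entered one fit with the stages merged, as in the study, each stage was also fitted alone, and the stages were compared within genotypes in a fit of 6 groups. A standard error is the log2 fold change divided by the square root of F. The fits were tested on simulated counts. The 38 pairs of libraries of a group differed by more than sampling noise (chi-square per gene 23.4 to 184), so each embryo is 1 replicate. The named genes were all 10 members, *Dis3* and *Mtrex*. Of other pathway genes past an adjusted p of 0.1, *Dis3l*, *Exosc3*, *Hbs1l* and *Srrt* were given values after they were seen. *Exosc8*, *Nvl*, *Rbm26* and *Rbm27* also passed it between the stages of wild-type embryos, under the fold threshold. Alternatives were median-of-ratios or ERCC scaling, no filter, DESeq2 1.42.0, a stage covariate, a replicate block, 2 genotypes per fit, leaving out each embryo, other gene lengths, and stricter peak rules. Gene models were those of GENCODE vM21 on GRCm38 and promoters those of RefSeq on GRCm38.p6. The input signal of the chromatin samples was not used here.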

Additional observations from a re-analysis of the deposited data

Results flagged for a closer look

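The 10 members were examined in the 3 groups with 4 to 10 embryos, 30 sets of values in all, and in 3 of them 1 embryo stood apart from the rest by Dixon's criterion, which chance meets in about 1 in 20 groups. *Pabpn1* was at 94.2 CPM in E2.5 wild-type replicate 1, where the other 5 embryos lay between 41.1 and 55.0 CPM. *C1d* was at 524 CPM in E2.75 het replicate 2, where the other 4 lay between 147 and 237 CPM. *Skiv2l* was at 13.4 CPM in E2.5 null replicate 1, where the other 3 lay between 0.235 and 0.680 CPM.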

How the results depend on the processing

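Leaving single embryos out gave 0 to 1 called members in null against wild-type, 0 to 1 in null against het at E2.75 and 1 to 3 between the stages of wild-type embryos. The *Zfc3h1* change of null against wild-type stayed between 0.91 and 1.17 (edgeR adjusted p 0.0563 to 0.168) and its change of null against het at E2.75 between 1.03 and 1.36 (edgeR adjusted p 0.0474 to 0.197). *Skiv2l* between the stages of wild-type embryos stayed between 2.91 and 3.77 (edgeR adjusted p 0.0546 to 0.160). Of the 256 log2 fold changes recomputed under other settings, 216 kept direction and side of the threshold, 28 changed sign, 7 lost a call and 5 gained one. Of 608 recomputed without 1 embryo, 555, 29, 24 and 0 did. The E2.5 het group holds 2 embryos, so comparisons with it are the least precise, and a missing call there does not show equal levels. The cause of the changes below was not tested.

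With ERCC scaling, 4 members were called in null against het (*Rbm7*, *Zcchc8*, *Pabpn1* and *Zcchc7*, all lower), where 4487 of 13415 genes were called lower. In null against wild-type 0 were called, where 317 genes were called higher and 469 lower. In null against het at E2.75, 3 were called (*Rbm7*, *Zcchc8* and *Pabpn1*), where 2164 of 14442 genes were called lower. In null against het at E2.5, 2 were called (*Rbm7* and *Mphosph6*), where 1916 of 15904 genes were called lower. Between the stages of wild-type embryos *Skiv2l* and *Zcchc8* were called higher, as were 3218 of 18677 genes. The median of all genes moved to -1.08 in null against het, -0.37 in null against wild-type, 0.71 in het against wild-type, -0.74 and -1.15 in null against het at E2.75 and E2.5, and 0.89 between the stages of wild-type embryos. Signs that turned were those of *Zfc3h1* (-0.051), *Zcchc7* (-1.05), *C1d* (-0.86), *Mphosph6* (-0.72) and *Wdr61* (-0.59) in null against het. In null against wild-type they were *Zcchc7* (-0.060), *C1d* (-0.21) and *Wdr61* (-0.23). In het against wild-type they were *C1d* (0.65), *Mphosph6* (0.17), *Ttc37* (0.43) and *Wdr61* (0.36). Between the stages of wild-type embryos they were *Rbm7* (0.27), *Pabpn1* (0.60), *Zcchc7* (0.79) and *C1d* (0.077), and in null against het at E2.5 *Zfc3h1* (-0.79).

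The replicate numbers did not pair the embryos, since 0 of 17 pairs of the same number had a correlation of deviations over 0.1 (median 0.0079). With the replicate block 0 members were called in null against wild-type (*Zfc3h1* 0.86, edgeR adjusted p = 0.186), where 386 genes were called higher and 174 lower. The sign then turned for *Zcchc7* in null against het (-0.075), *Mphosph6* in null against wild-type (0.032) and *Zfc3h1* (-0.15) and *C1d* (0.17) in het against wild-type. With only the 2 genotypes compared, 0 members were called in null against wild-type (*Zfc3h1* 1.05, edgeR adjusted p = 0.169), where 389 genes were called higher and 125 lower. DESeq2 called 1 member in null against wild-type at E2.75 (*Zfc3h1* 1.02, DESeq2 adjusted p = 0.0940), where 1160 genes were called higher and 834 lower. Between the stages DESeq2 turned *Zcchc7* to 0.034 and put *Wdr61* at -0.99 (DESeq2 adjusted p = 0.00361), under the fold threshold. A stage covariate turned *C1d* in null against het (-0.013) and in het against wild-type (0.13) and *Skiv2l* in null against wild-type (0.072). Without the filter *C1d* (-0.042) and *Wdr61* (-0.0062) turned in null against wild-type, and with all 23 embryos *Zcchc8* turned to -0.086 between the stages.

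Leaving 1 embryo out turned the sign of some small values. The ranges were -0.25 to 0.16 for *Ttc37* in null against het, and -0.24 to 0.063 for *Pabpn1*, -0.12 to 0.24 for *C1d*, -0.50 to 0.20 for *Skiv2l* and -0.10 to 0.19 for *Wdr61* in null against wild-type. In het against wild-type they were -0.017 to 0.25 for *Rbm7*, -0.062 to 0.22 for *Zfc3h1*, -0.014 to 0.23 for *Pabpn1*, -0.00079 to 0.29 for *Zcchc7* and -0.45 to 0.0011 for *C1d*. Between the stages they were -0.70 to 0.21 for *Zcchc7* and -0.024 to 0.70 for *Ttc37*. With a 50% reciprocal overlap of replicate peaks 5 of 10 members had a peak in the longer lists, where 31.3% of genes did. In the shorter lists 1 did (*Wdr61*), where 6.98% of genes did. With a −log10 q of at least 5 the shorter lists gave 2 (*Mphosph6* and *Wdr61*), where 18.4% of genes had a peak.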
